A study of Homo sapiens with 9 samples.

Results

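The genes described here are 43 cytosolic and mitochondrial molecular chaperones, co-chaperones and heat shock factors, of 57500 genes counted in HEK293T cells. They were taken from a list of gene names, matched to gene names in the deposited tables of differential expression and then by identifier to the count files. No threshold on a measured value was applied, but the list and the roles were chosen with earlier results of these data known. They were sorted by role into 14 inducible targets of the heat shock factor HSF1, 14 constitutive cytosolic chaperones and co-chaperones, 2 heat shock factors, 5 mitochondrial chaperones and 8 subunits of the TRiC chaperonin. All 43 had enough counts to be tested in each comparison, from DNAJA4 with 50 to 106 counts per library upwards.

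HEK293T is an established human embryonic kidney line, used here as 1 line without a second cell type. The cells were kept for 5 h with 10 µM HBC530, with 10 µM MsOc3HBC or with the vehicle DMSO, and the poly(A) RNA of 3 biological replicates of each was sequenced. HBC530 is a dye that lights up when it binds the Pepper RNA aptamer, without forming a covalent bond. MsOc3HBC is a relative of the dye with a mesylate group on a linker, through which it can react covalently with the aptamer. The sources used here name no aptamer plasmid for these 9 libraries. The study sequenced them to ask whether MsOc3HBC also binds covalently to the cell's own mRNAs, which it reasoned would alter their levels if substantial. It also inspected the read coverage of the genes that changed.

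Chaperones bind unfolded or newly made proteins and help them fold, often through cycles of ATP hydrolysis. When proteins misfold, for example after heat or exposure to reactive chemicals, HSF1 is released from chaperones, binds heat shock elements in promoters and raises transcription of the inducible chaperones, whereas constitutive chaperones and TRiC serve folding in unstressed cells. Mitochondria hold their own HSP70, HSP60 and HSP90 relatives, which receive proteins imported from the cytosol. In bulk RNA such as this, fewer cells of a kind and less RNA per cell cannot be told apart.

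A heat shock element is built of inverted repeats of the unit GAA, so its smallest paired forms read GAANNTTC or TTCNNGAA, each of which is its own reverse complement. The stretches below come from the promoter table of RefSeq (GRCh38.p14) and are shown because they carry such pairs near the start sites of the genes whose levels differed most between the ligands (HSPA1A, HSPA1B, DNAJB1, HSPA8) and of the inducible targets HSP90AA1 and HSPB1. Each line holds 30 bases, 5′ to 3′ on the strand of the gene, with the paired units in capitals. The HSPA1A stretch is chr6:31815426-31815455 (plus strand), the HSPA1B stretch chr6:31827622-31827651 (plus), the DNAJB1 stretches chr19:14518456-14518485 and chr19:14518426-14518455 (minus), the HSPB1 stretch chr7:76302480-76302509 (plus), the HSP90AA1 stretch chr14:102087104-102087133 (minus) and the HSPA8 stretch chr11:123062171-123062200 (minus).
HSPA1A: cgaaaaccctgGAATATTCccgacctggca
HSPA1B: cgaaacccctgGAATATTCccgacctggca
DNAJB1, distal: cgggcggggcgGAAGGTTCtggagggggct
DNAJB1, proximal: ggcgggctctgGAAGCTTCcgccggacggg
HSPB1: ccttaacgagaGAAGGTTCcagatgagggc
HSP90AA1: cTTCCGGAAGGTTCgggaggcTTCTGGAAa
HSPA8: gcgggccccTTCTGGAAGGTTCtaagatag

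The pair began 106 bases before the start in HSPA1A and 105 bases before it in HSPA1B, and 235 of the 250 bases before the start were identical between these neighbouring genes. HSP90AA1 and HSPA8 held overlapping pairs that form a run of 3 units. Windows from 250 bases before to 50 bases after a start were found for 39 of the 43 genes, with 56 start sites. A paired form occurred in 21 of these 56 windows (37.5%) and in 4737 of all 35116 RefSeq windows (13.5%). By role it occurred in 11 of 23 windows of the inducible targets (47.8%), 5 of 16 of the constitutive genes (31.2%), 2 of 6 of the mitochondrial genes (33.3%) and 3 of 9 of the TRiC genes (33.3%). A run of 3 units occurred in 7 of the 56 windows (12.5%) and in 172 of all windows (0.490%). By role, such runs occurred in 3 of 23 windows of the inducible targets (13.0%) and 3 of 16 of the constitutive genes (18.75%). They occurred in 1 of 6 windows of the mitochondrial genes (16.7%) and 0 of 9 of the TRiC genes. No paired form was found in the windows of BAG3, HSPH1, DNAJB5, AHSA1, TRAP1 or HSPE1, and FKBP4 and HSF1 had no window. Such forms are matches of letters, not sites at which binding was measured, and a link to the levels was not tested.

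The libraries held between 28056929 and 62205366 counts on genes. Replicate 3 of HBC530 (36.9) and replicate 3 of MsOc3HBC (48.8) scored high on the first principal component of the log2 CPM of 18041 genes, where the remaining 7 scored from -20.3 to -4.28, and they were also the libraries with the fewest counts. Results that rest on them are given with and without them. Of the HEK293T markers, NEFL was at 72.4 to 91.7 CPM, NEFM at 100 to 181 CPM, INA at 17.2 to 24.9 CPM and VIM at 232 to 290 CPM. PAX2 (2.09 to 3.84 CPM) and LHX1 (5.41 to 8.53 CPM) were low. Of the genes listed for other cell types, PTPRC, ALB, COL1A2, PECAM1 and HBB were at or under 0.11 CPM and COL1A1 was at 19.4 to 35.2 CPM. CPM are normalised read counts, the counts of a gene scaled to a common library size with TMM factors over the 9 libraries.

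Per exonic length, the 43 genes spanned more than 3 orders of magnitude in DMSO, as CPM per kilobase of exons (RPKM). HSP90AB1, the constitutive cytosolic HSP90, was at the top with 930 ± 11.9 RPKM (SD, n = 3). HSPA1B, a stress-inducible HSP70, followed with 637 ± 48.4 RPKM, then the inducible HSP90 gene HSP90AA1 with 560 ± 31.1 RPKM and the constitutive HSP70 gene HSPA8 with 476 ± 7.95 RPKM. HSPA1B and HSP90AA1 were apart by less than the sum of their SDs, the other neighbours among these 4 by more. CCT7 (319 ± 2.26 RPKM) led the TRiC subunits and HSPD1, mitochondrial HSP60 (286 ± 11.0 RPKM), led the mitochondrial chaperones. HSF1 itself stood at 29.1 ± 3.57 RPKM and HSF2 at 10.6 ± 0.598 RPKM. The lowest were HSPA2 (0.976 ± 0.0355 RPKM) and DNAJA4 (0.247 ± 0.00968 RPKM).

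HSPA1A, at 8.06 ± 0.632 RPKM, was far below its neighbour HSPA1B, but these 2 levels are uncertain. Of the 100-base windows of the HSPA1A transcript, 72.4% also occur in the HSPA1B transcript, and 68.9% of those of HSPA1B occur in HSPA1A, and the authors kept unique gene hits only. Reads from the shared stretches cannot be assigned to one of the pair, so the changes of these 2 genes given below may not be independent.

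HBC530 against DMSO addresses the effect of the non-covalent dye. None of the 43 genes passed an adjusted p of 0.05 in the quasi-likelihood test of edgeR, adjusted over all genes by Benjamini-Hochberg, where 3 of 17684 genes did (0.017%), and DESeq2 and limma-voom also called 0 of the 43. At an unadjusted p under 0.05 stood 3 of the 43, all higher (HSPA1A, HSPA1B and DNAJB2), where 5.07% of all genes did in either direction and 2.7% were higher. The log2 fold change was below 0 for 25 of the 43 (48.9% of all genes), with a median of -0.03 beside 0.00 for all genes.

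HSPA1A (chr6:31815464-31817946, GRCh38, plus strand) and HSPA1B (chr6:31827735-31830255, plus strand) encode nearly the same inducible HSP70. HSPA1A was at 21.7, 18.6 and 19.7 CPM in DMSO replicates 1 to 3, at 25.5, 27.1 and 28.3 CPM with HBC530 and at 15.48, 16.96 and 15.16 CPM with MsOc3HBC. HSPA1B was at 1734, 1491 and 1591 CPM in DMSO, at 1964, 2021 and 2388 CPM with HBC530 and at 1311, 1402 and 1545 CPM with MsOc3HBC. Every HBC530 library was above every DMSO library for both genes. All MsOc3HBC libraries were below DMSO for HSPA1A, and they overlapped DMSO for HSPA1B.

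With HBC530 the log2 fold change of HSPA1A was 0.43 ± 0.10 (SE), 1.35-fold, with a 95% confidence interval from 0.22 to 0.65 (unadjusted p = 0.00113, adjusted p = 0.74, edgeR's quasi-likelihood test). That of HSPA1B was 0.41 ± 0.10, 1.32-fold, with an interval from 0.18 to 0.63 (unadjusted p = 0.00243, adjusted p = 0.751, edgeR). Both stayed positive when each library was left out in turn, from 0.38 to 0.49 for HSPA1A and from 0.32 to 0.46 for HSPA1B. Without a filter on low counts HSPA1B passed the threshold (adjusted p = 0.0114, edgeR), and over its 15 alternatives the adjusted p ran from 0.0114 to 0.96.

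DNAJB1 (chr19:14514770-14529770, minus strand), an HSP40 that delivers clients to HSP70, was at 281, 273 and 277 CPM in DMSO, 291, 301 and 334 CPM with HBC530 and 243, 247 and 238 CPM with MsOc3HBC. The 3 treatments did not overlap, HBC530 being above and MsOc3HBC below DMSO. The log2 fold change with HBC530 was 0.16 ± 0.08 (interval from -0.03 to 0.34, adjusted p = 0.751, edgeR). Of 17372 genes tested in both comparisons with DMSO, 22 (0.127%) had all HBC530 libraries above and all MsOc3HBC libraries below DMSO, and HSPA1A and DNAJB1 were among these. The opposite order was seen for 13 genes (0.0748%), with 0 of the 43 among them. Both comparisons use the same 3 DMSO libraries. Exons of TECR on the other strand overlap 6.21% of the DNAJB1 exons, and the strand setting of the counts is not given. Mean counts were 11401 for TECR and 13430 for DNAJB1.

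DNAJB2, an HSP40 co-chaperone known for its expression in neurons, was at 32.6, 32.7 and 34.2 CPM in DMSO, 38.6, 39.3 and 51.7 CPM with HBC530 and 39.9, 37.2 and 40.8 CPM with MsOc3HBC. It was above DMSO in every library of both ligands. Its log2 fold change with HBC530 was 0.38 ± 0.12 (interval from 0.11 to 0.64, unadjusted p = 0.0094, adjusted p = 0.751, edgeR), and 0.24 without HBC530 replicate 3, the highest of the libraries.

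The remaining 11 inducible targets showed no common direction with HBC530, with 5 above 0 and 6 below and a median log2 fold change of -0.06. HSP90AA1 was at 3065, 2999 and 2755 CPM in DMSO and at 3026, 2865 and 3768 CPM with HBC530, where replicate 3 alone exceeded DMSO. HSPB1, the small heat shock protein HSP27, was at 149, 181 and 194 CPM in DMSO and at 176, 188 and 230 CPM with HBC530. HSPH1, the HSP110 nucleotide exchange factor of HSP70, was at 305, 284 and 254 CPM in DMSO and at 270, 280 and 232 CPM with HBC530. These 3 genes overlapped between the treatments, with intervals from -0.12 to 0.38 for HSP90AA1, from -0.10 to 0.46 for HSPB1 and from -0.33 to 0.12 for HSPH1 on the log2 scale.

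Among the constitutive genes, 9 of 14 were below 0 (median -0.05), among the mitochondrial chaperones 3 of 5 (median -0.03) and among the TRiC subunits 6 of 8 (median -0.04). The lowest unadjusted p of the TRiC subunits was that of CCT6A, at 634, 604 and 579 CPM in DMSO and 566, 548 and 540 CPM with HBC530, without overlap (log2 fold change -0.14 ± 0.08, adjusted p = 0.751, edgeR). Over the 43 genes, the libraries did not overlap for 7 that were lower (6.64% of all genes) and 4 that were higher (7.17% of all genes). The 95% intervals of 40 of the 43 lay within 0.5 of 0 on the log2 scale.

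MsOc3HBC against DMSO addresses the effect of the reactive ligand. Again 0 of the 43 passed an adjusted p of 0.05 in edgeR's quasi-likelihood test, where 27 of 17514 genes did (0.154%), and DESeq2 and limma-voom called 0 of them. At an unadjusted p under 0.05 stood 7 of the 43, 5 lower and 2 higher, where 10.9% of all genes did (4.78% lower, 6.12% higher). The log2 fold change was below 0 for 35 of the 43, beside 47.6% of all genes, with a median of -0.12 beside 0.01. The libraries did not overlap for 15 genes that were lower (8.96% of all genes) and for 2 that were higher (9.35% of all genes).

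HSPA8 (chr11:123057489-123063230, minus strand) encodes HSC70, the constitutive HSP70 of the cytosol. It was at 2318, 2342 and 2266 CPM in DMSO, 2354, 2172 and 2447 CPM with HBC530 and 1707, 1784 and 2031 CPM with MsOc3HBC. The MsOc3HBC libraries were below all others, with replicate 3 the nearest to DMSO. The log2 fold change against DMSO was -0.32 ± 0.10 (0.799-fold, interval from -0.55 to -0.10, unadjusted p = 0.00948, adjusted p = 0.324, edgeR). Without MsOc3HBC replicate 3 it was -0.40 (adjusted p = 0.0107, edgeR) and HSPA8 was the 1 gene of the 43 past the threshold (0.421% of all genes). Over its 15 alternatives the adjusted p ran from 0.0032 to 0.952. With HBC530 its log2 fold change was 0.01, with an interval from -0.17 to 0.19.

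HSPA1A had a log2 fold change of -0.33 ± 0.10 with MsOc3HBC (0.796-fold, interval from -0.55 to -0.10, unadjusted p = 0.0083, adjusted p = 0.323, edgeR) and was negative with each library left out, from -0.38 to -0.27. HSPA1B was at -0.17 ± 0.11 (interval from -0.41 to 0.06, adjusted p = 0.567, edgeR). DNAJB1 was at -0.19 ± 0.09 (interval from -0.38 to -0.00111, unadjusted p = 0.0489, adjusted p = 0.457, edgeR). HSPH1 was at 229, 261 and 217 CPM with MsOc3HBC, overlapping DMSO at one library, with a log2 fold change of -0.25 ± 0.11 (adjusted p = 0.433, edgeR).

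The largest positive value among the inducible targets was that of DNAJB5, an HSP40 of low level, at 9.78, 10.3 and 10.7 CPM in DMSO and 12.1, 13.9 and 11.9 CPM with MsOc3HBC. DNAJB5 did not overlap between these treatments (log2 fold change 0.30 ± 0.11, unadjusted p = 0.0154, adjusted p = 0.358, edgeR). It falls outside the naming rule and was chosen after its values were seen. DNAJB2 was also higher, by 0.25 ± 0.09 (unadjusted p = 0.0202, adjusted p = 0.384, edgeR).

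Most inducible targets were lower with MsOc3HBC, 10 lower and 4 higher (median -0.11), and so were 11 of the 14 constitutive genes (median -0.16). HSP90AB1 was at 2805, 2771 and 2734 CPM in DMSO and 2398, 2507 and 2504 CPM with MsOc3HBC, without overlap (log2 fold change -0.16 ± 0.09, interval from -0.37 to 0.04, adjusted p = 0.546, edgeR). FKBP4, an immunophilin co-chaperone of HSP90, was at 553, 581 and 579 CPM in DMSO, 565, 538 and 604 CPM with HBC530 and 493, 489 and 538 CPM with MsOc3HBC. Its MsOc3HBC libraries were below all DMSO libraries, with a log2 fold change of -0.17 ± 0.09 (adjusted p = 0.527, edgeR).

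**Figure D1:**
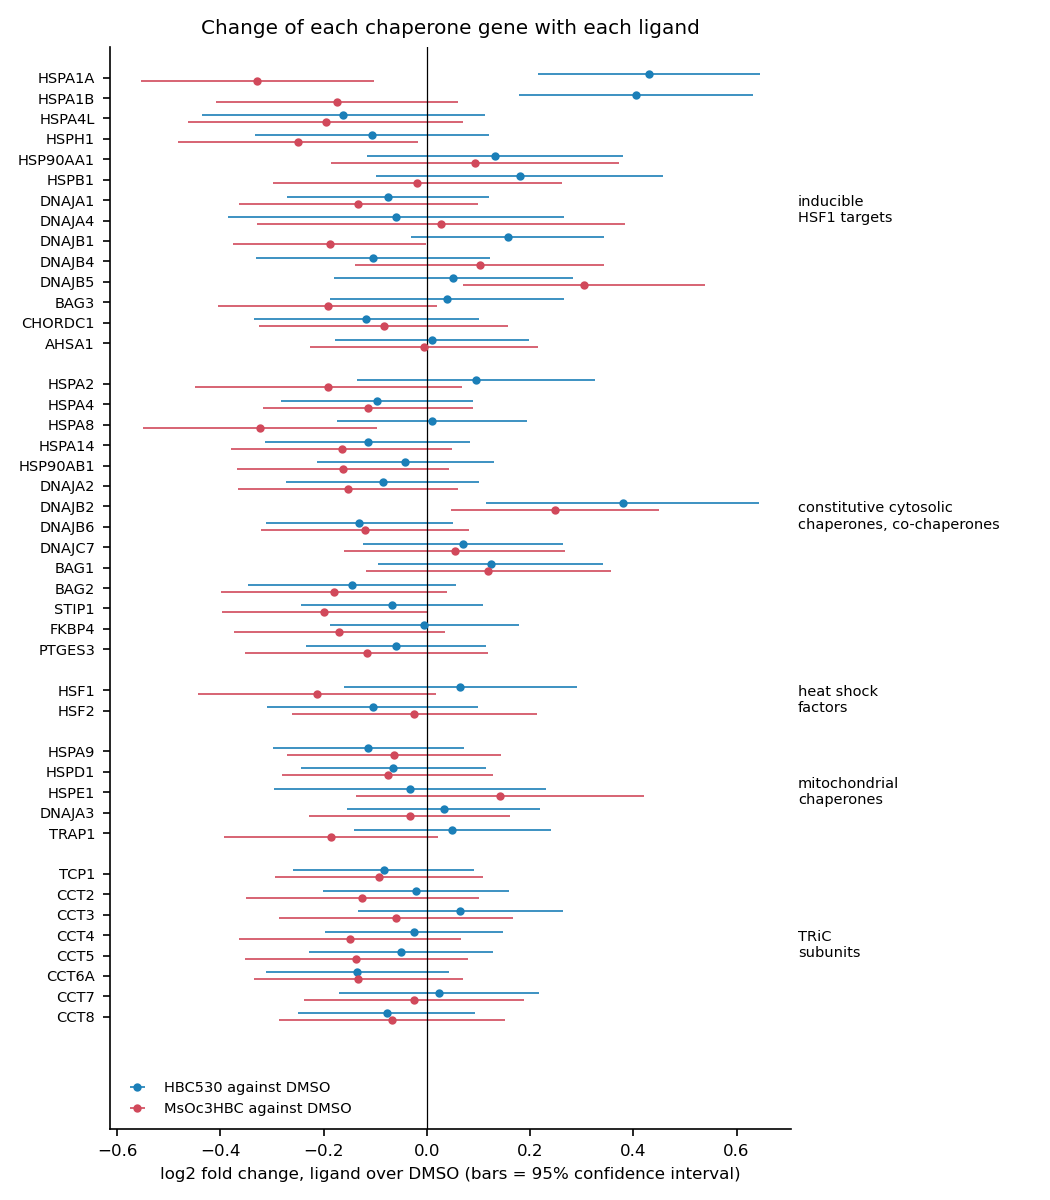
Log2 fold change over DMSO of each of the 43 genes with HBC530 (blue) and MsOc3HBC (red), sorted by role, with 95% confidence intervals from edgeR on 3 libraries per treatment. HSPA1A and HSPA1B are at 0.43 and 0.41 with HBC530, and all 8 TRiC subunits lie left of 0 with MsOc3HBC with intervals that include 0.

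TRiC, the ring that folds actin, tubulin and other cytosolic proteins, was lower with MsOc3HBC for all 8 subunits, by log2 fold changes from -0.15 to -0.03 (median -0.11), and 0 of the 8 had an unadjusted p under 0.05 in edgeR's test. CCT7, the nearest to 0, was at 0.01 without MsOc3HBC replicate 1. TCP1, subunit alpha of the ring, was at 567, 564 and 564 CPM in DMSO, 560, 527 and 511 CPM with HBC530 and 509, 515 and 561 CPM with MsOc3HBC. CCT2 was at 511, 531 and 509 CPM in DMSO, 517, 480 and 531 CPM with HBC530 and 436, 452 and 532 CPM with MsOc3HBC. CCT4 was at 568, 585 and 571 CPM in DMSO, 577, 544 and 574 CPM with HBC530 and 483, 499 and 568 CPM with MsOc3HBC.

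In these 3 subunits MsOc3HBC replicates 1 and 2 were below all DMSO libraries, and replicate 3 was close to the DMSO range or above it. Without MsOc3HBC replicate 3, 7 of the 8 subunits had an unadjusted p under 0.05 and all 8 were lower (median -0.16), and 0 passed an adjusted p of 0.05. Over the 43 genes, leaving out this library moved the unadjusted count from 7 to 26 (24 of them lower), beside 14.5% of all genes (7.2% lower), and 10 of the 14 constitutive genes were then lower at an unadjusted p under 0.05.

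Summed over a role, the constitutive genes took 0.800 to 0.834% of all counts in DMSO, 0.776 to 0.809% with HBC530 and 0.699 to 0.725% with MsOc3HBC, so the MsOc3HBC libraries were below all others, replicate 3 included. The inducible targets took 0.603 to 0.660% in DMSO, 0.664 to 0.750% with HBC530 and 0.573 to 0.660% with MsOc3HBC. HBC530 was thus above DMSO in each library, and MsOc3HBC overlapped DMSO. HSPA1B and HSP90AA1 make up most of the counts of that group, so its sum follows these 2 genes. The sum of the constitutive genes likewise follows HSP90AB1 and HSPA8, which make up most of its counts. TRiC took 0.551 to 0.562% in DMSO, 0.526 to 0.553% with HBC530 and 0.509 to 0.544% with MsOc3HBC, and the mitochondrial chaperones took 0.262 to 0.277%, 0.249 to 0.261% and 0.252 to 0.263%.

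**Figure D2:**
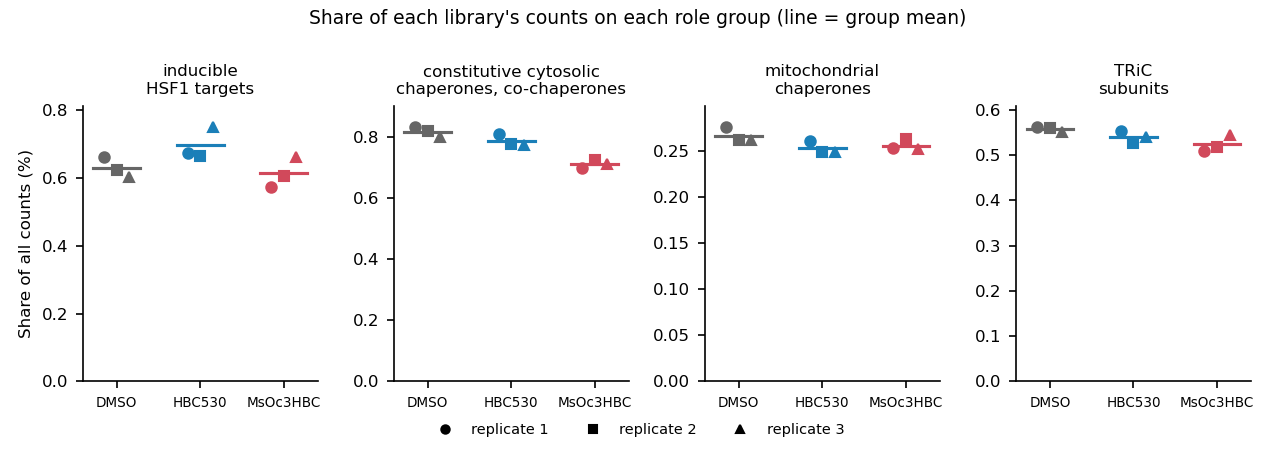
Share of each library's counts, in percent, on 4 of the role groups in DMSO (grey), HBC530 (blue) and MsOc3HBC (red), with a symbol for each replicate and a line at the mean of 3 libraries. The constitutive genes, most of whose counts are those of HSP90AB1 and HSPA8, lie between 0.699 and 0.725% with MsOc3HBC, below every other library.

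Against DMSO, 0 of the 5 mitochondrial chaperones had an unadjusted p under 0.05 with either ligand in edgeR's test. HSPD1 (chr2:197486581-197516737, minus strand) was at 1268, 1188 and 1187 CPM in DMSO, 1198, 1110 and 1173 CPM with HBC530 and 1116, 1153 and 1178 CPM with MsOc3HBC. HSPA9, mitochondrial HSP70, was at 693, 643 and 605 CPM in DMSO, 607, 595 and 589 CPM with HBC530 and 598, 629 and 626 CPM with MsOc3HBC. The log2 intervals against DMSO ran from -0.24 to 0.11 for HSPD1 and from -0.30 to 0.07 for HSPA9 with HBC530, and from -0.28 to 0.13 and from -0.27 to 0.14 with MsOc3HBC. The MsOc3HBC libraries were below all DMSO libraries for HSPD1, by a narrow gap, and overlapped them for HSPA9.

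HSPE1 (chr2:197499994-197503457, plus strand), the HSP10 lid of HSP60, was at 319, 272 and 296 CPM in DMSO, 266, 258 and 343 CPM with HBC530 and 290, 296 and 390 CPM with MsOc3HBC. Replicate 3 was the highest library of each ligand. HSPE1 and HSPD1 lie on opposite strands and share 281 exonic bases, 14.2% of HSPE1, and the strand setting of the counts is not given in the sources used here.

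TRAP1 (chr16:3651639-3717597, minus strand), the mitochondrial HSP90, was at 314, 352 and 361 CPM in DMSO, 345, 351 and 366 CPM with HBC530 and 299, 312 and 290 CPM with MsOc3HBC. Its MsOc3HBC libraries were below every other library (log2 fold change against DMSO -0.19 ± 0.09, interval from -0.39 to 0.02, adjusted p = 0.496, edgeR). Exons of DNASE1 on the other strand overlap 29.3% of the TRAP1 exons.

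HSF1, the regulator of the inducible genes, was at 133, 162 and 169 CPM in DMSO, 155, 168 and 163 CPM with HBC530 and 134, 132 and 134 CPM with MsOc3HBC. DMSO replicate 1 lay within the MsOc3HBC range and the other 2 DMSO libraries lay above it. The log2 fold change against DMSO was -0.21 ± 0.11 with MsOc3HBC (interval from -0.44 to 0.02, adjusted p = 0.487, edgeR) and ran from -0.31 to -0.14 when each library was left out. HSF2, a related factor, was at 29.6, 29.7 and 26.8 CPM in DMSO, 28.3, 25.9 and 25.8 CPM with HBC530 and 26.4, 26.3 and 32.0 CPM with MsOc3HBC, with overlap throughout.

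MsOc3HBC and HBC530 were then compared directly, at the same dose and time, as the only pair of ligands in the series. Libraries with the same replicate number deviated together between the ligands (correlations of 0.167, 0.368 and 0.433 across genes), although MsOc3HBC replicate 2 and HBC530 replicate 1 also did (0.296). Deviations within a group sum to 0 and replicate 3 stood apart in both ligands, so pairing of replicates 1 and 2 is not shown by these values. Values with the replicate as a block are given beside those without it. Without the block, 0 of the 43 passed an adjusted p of 0.05 in edgeR's quasi-likelihood test (0% of 17397 genes), 8 had an unadjusted p under 0.05, all lower with MsOc3HBC (7.32% of all genes in either direction, 4.22% lower), limma-voom called 0 and DESeq2 called HSPA1A and HSPA1B. With the block, 10 of the 43 passed an adjusted p of 0.05 (11.4% of all genes), of which 9 were lower with MsOc3HBC (6.9% of all genes) and 1 was higher (4.54% of all genes). Of these 10, 9 also passed without the block when replicate 3 of both ligands was left out, HSPE1 being the exception. That fit holds 4 of the same libraries, and 9.16% of all genes passed in it, so it is no independent test. The direction was negative for 33 of the 43 in both fits, beside 46.2% of all genes, with a median of -0.06 beside 0.02 without the block.

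The libraries of the ligands did not overlap for 10 genes that were lower with MsOc3HBC (8.5% of all genes) and for 2 that were higher (6.85% of all genes).

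HSPA1A and HSPA1B differed most. HSPA1A was lower with MsOc3HBC by a log2 difference of -0.76 ± 0.09 (0.59-fold, interval from -0.97 to -0.55, adjusted p = 0.248, edgeR), and with the block by -0.75 ± 0.07 (adjusted p = 0.000102, edgeR). HSPA1B was lower by -0.58 ± 0.12 (0.669-fold, interval from -0.85 to -0.31, adjusted p = 0.643, edgeR), and with the block by -0.58 ± 0.04 (adjusted p = 2.77e-05, edgeR). Every MsOc3HBC library was below every HBC530 library for both, and without replicate 3 of either ligand the differences were -0.70 and -0.56 (adjusted p = 0.000109 and 3.54e-05, edgeR). Over 17 alternatives the adjusted p ran up to 0.971 for both, and it was under 0.05 in 7 of them for HSPA1A and 6 for HSPA1B.

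Of the other inducible targets, DNAJB1 differed by -0.34 ± 0.05 with the block (adjusted p = 0.00274, edgeR; -0.35 without it), again with no overlap between the libraries. BAG3, a co-chaperone that couples HSP70 to autophagy, was at 57.0, 66.3 and 66.3 CPM in DMSO, 65.5, 70.7 and 58.4 CPM with HBC530 and 56.5, 56.6 and 52.5 CPM with MsOc3HBC. Its difference between the ligands was -0.23 ± 0.05 with the block (adjusted p = 0.0171, edgeR), and the libraries of the ligands did not overlap. HSPB1 was at 163, 155 and 199 CPM with MsOc3HBC and differed by -0.20 ± 0.05 with the block (adjusted p = 0.0223, edgeR), although its libraries overlapped, since replicate 3 was the highest in each ligand.

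HSP90AA1, whose promoter stretch holds the 3-unit run printed above, was at 2753, 2911 and 3716 CPM with MsOc3HBC. It differed from HBC530 by -0.04, with an interval from -0.40 to 0.32 without the block, so a difference of the size seen for DNAJB1 lies within that interval. With the block the difference was -0.04 ± 0.04 (adjusted p = 0.593, edgeR). Across the 14 inducible targets, 5 were lower between the ligands past the adjusted threshold with the block (6.9% of all genes). None was higher past it (4.54% of all genes), and the other 9 ranged in sign. The libraries of the ligands did not overlap for 2 targets that were higher with MsOc3HBC, DNAJB5 (0.25 with the block, adjusted p = 0.0686, edgeR) and DNAJB4 (0.20 with the block, adjusted p = 0.108, edgeR), both HSP40 genes named for this after their values were seen.

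Among the constitutive genes, HSPA8 was lower with MsOc3HBC than with HBC530 by -0.33 ± 0.11 without the block (adjusted p = 0.643, edgeR) and by -0.34 ± 0.05 with it (adjusted p = 0.00216, edgeR). FKBP4 was lower by -0.17 ± 0.04 with the block (adjusted p = 0.0279, edgeR), and replicate 3 of MsOc3HBC matched replicate 2 of HBC530 to within 0.1 CPM. In total 13 of the 14 were below 0, beside 46.2% of all genes without the block, and 2 passed with the block (11.4% of all genes). HSP90AB1 was at 2705, 2640 and 2723 CPM with HBC530, above every MsOc3HBC library, with a difference of -0.12 ± 0.04 with the block (adjusted p = 0.0853, edgeR).

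HSF1 was lower with MsOc3HBC by -0.28 ± 0.08 without the block (interval from -0.46 to -0.09, adjusted p = 0.643, edgeR) and by -0.28 ± 0.05 with it (adjusted p = 0.00515, edgeR), and the libraries did not overlap. HSF2 differed by 0.07 ± 0.07 with the block (adjusted p = 0.605, edgeR).

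Of the mitochondrial chaperones, TRAP1 was lower by -0.24 ± 0.05 with the block (adjusted p = 0.00919, edgeR) without overlap, and HSPE1 was higher by 0.17 ± 0.04 (adjusted p = 0.0255, edgeR), in each same-numbered pair, although the libraries overlapped. Without replicate 3 of both ligands the difference of HSPE1 was 0.16, with an adjusted p of 0.0595 without the block and 0.0108 with it (edgeR). HSPD1 and HSPA9 differed by -0.01 and 0.05, with intervals from -0.22 to 0.19 and from -0.14 to 0.24 without the block. The TRiC subunits ranged from -0.13 to 0.01, and 0 of 8 passed the adjusted threshold with the block (11.4% of all genes). An unadjusted p under 0.05 with the block was seen for 2 of the 8, near the share of 27.2% of all genes. Without replicate 3 of both ligands all 8 were lower and 10 of the 43 passed, beside 9.16% of all genes, among them CCT4 (-0.20, adjusted p = 0.0307, edgeR, from 0.00103 to 0.972 over its alternatives).

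**Figure D3:**
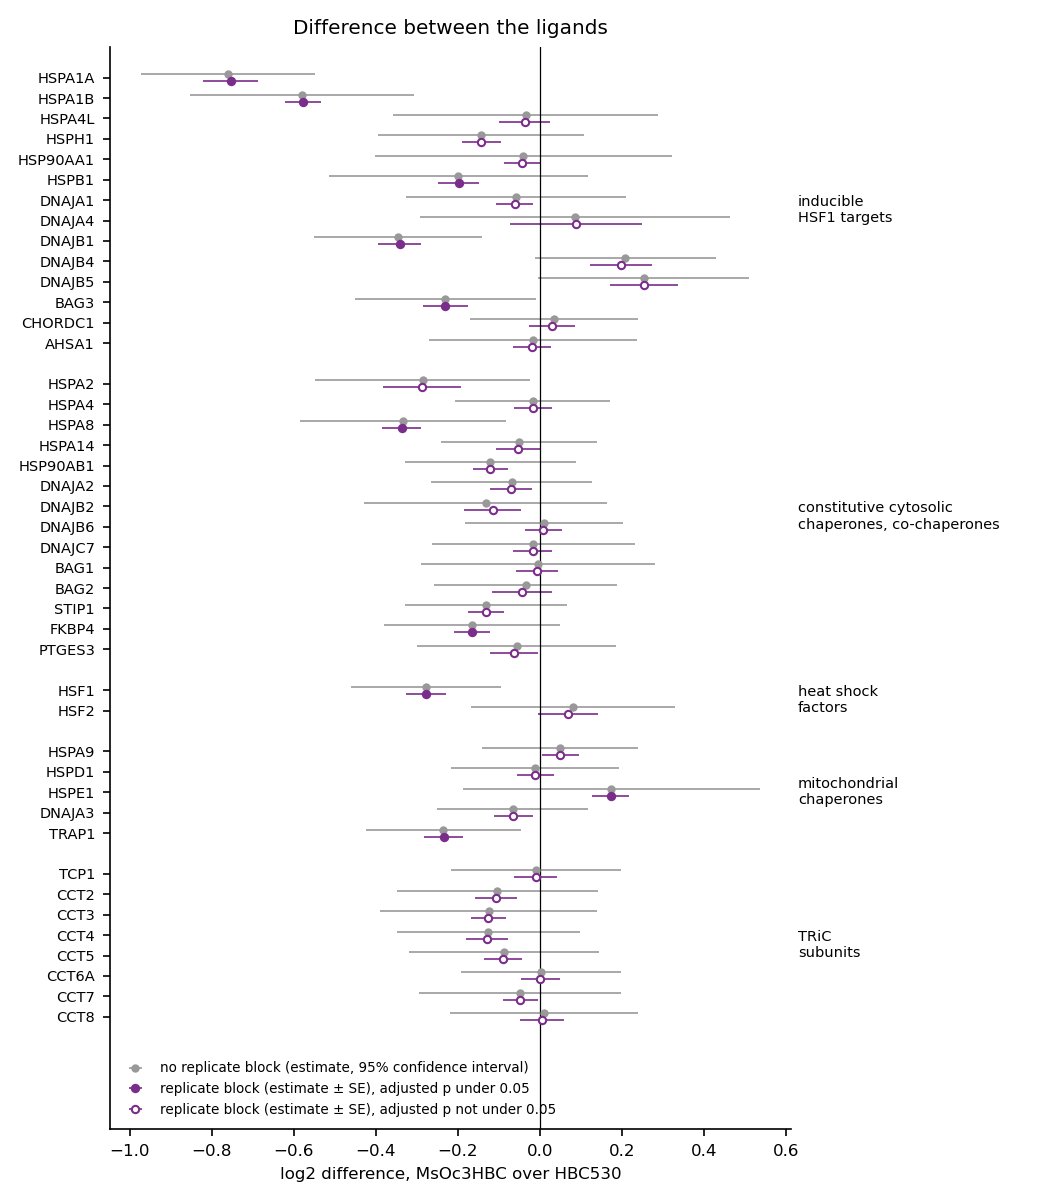
Log2 difference of MsOc3HBC over HBC530 for each of the 43 genes, sorted by role, without the replicate block (grey, 95% confidence interval) and with it (purple, ± SE). The 10 filled points have an adjusted p under 0.05 with the block, 9 of them left of 0.

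Further genes of the same pathways were grouped in 4 lists, and 0 of the 51 that could be tested passed an adjusted p of 0.05 against DMSO with either ligand in edgeR's quasi-likelihood test. At an unadjusted p under 0.05 stood 1 of the 51 with HBC530, beside 5.07% of all genes, and 7 with MsOc3HBC, beside 10.9%. The log2 fold change was below 0 for 15 of the 51 with HBC530 (48.9% of all genes) and for 20 with MsOc3HBC (47.6% of all genes). Between the ligands 11 of the 51 passed with the block (11.4% of all genes), 10 lower with MsOc3HBC (6.9% of all genes) and 1 higher (4.54%).

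Of 12 other heat shock and HSF1-linked genes, HSPB8, a small heat shock protein that works with BAG3, had the lowest unadjusted p with each ligand. It was at 2.01, 1.77 and 1.67 CPM in DMSO, 2.30, 2.33 and 2.37 CPM with HBC530 and 2.36, 2.16 and 2.46 CPM with MsOc3HBC, above DMSO in each library (log2 fold change 0.37 and 0.36, adjusted p = 0.751 and 0.437, edgeR). HSPA6, the strictly inducible HSP70, stayed between 0.33 and 0.69 CPM in all 9 libraries. IER5, a target and regulator of HSF1, was lower with MsOc3HBC than with HBC530 by -0.23 with the block (adjusted p = 0.0106, edgeR), as was SERPINH1 (-0.18, adjusted p = 0.0266, edgeR).

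Of 19 other cytosolic co-chaperones, 6 were lower with MsOc3HBC than with HBC530 past the blocked threshold (6.9% of all genes) and 0 were higher (4.54% of all genes). SGTA, which hands tail-anchored proteins on to the BAG6 complex, was at 203, 241 and 248 CPM in DMSO, 234, 246 and 258 CPM with HBC530 and 182, 181 and 206 CPM with MsOc3HBC. Its difference between the ligands was -0.38 with the block (adjusted p = 0.00123, edgeR). The others were HSPBP1, BAG6, STUB1, UNC45A and DNAJC5, from -0.23 to -0.18.

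Of 11 other mitochondrial quality control genes, GRPEL2, a nucleotide exchange factor of mitochondrial HSP70, was at 42.0, 34.6 and 35.1 CPM in DMSO, 36.1, 34.5 and 34.6 CPM with HBC530 and 43.2, 43.2 and 47.1 CPM with MsOc3HBC. It was higher with MsOc3HBC than with HBC530 in every library, by 0.34 with the block (adjusted p = 0.00406, edgeR). Of 9 prefoldin subunits and TRiC helpers, 8 were above 0 with MsOc3HBC against DMSO (median 0.16, and 0.05 without MsOc3HBC replicate 3), and PFDN1 was lower than with HBC530 by -0.18 with the block (adjusted p = 0.0355, edgeR). PFDN2 had the lowest unadjusted p of these 9 against DMSO, with a log2 fold change of 0.35 (adjusted p = 0.412, edgeR).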

How the data were processed

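From paired-end reads of poly(A) RNA the authors removed adapters with Trimmomatic 0.36, then ran STAR 2.5.2b against GRCh38 and counted unique gene hits with featureCounts (Subread 1.5.2). The deposited count files hold these raw counts; the annotation release, strand setting and counting of pairs are not given in the sources used here. The deposited signal columns of the differential expression tables hold the same counts, each library divided by 1 factor, and were used only as a check. Those tables also hold the authors' fold changes and p-values (DESeq2), which were not used.

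Each comparison used edgeR 4.0.16 (R 4.3.3) on 6 libraries: filterByExpr, TMM scaling, the quasi-likelihood test, and Benjamini-Hochberg adjustment over all genes tested, with the threshold at 0.05. SEs were taken as the log2 fold change over the square root of F, and 95% intervals from the same fit. The members, roles and lists were chosen with earlier results of these data known. Values per library are given for members past 0.05 in a comparison (blocked where paired), for the lowest p of each role and comparison, and for a fixed set of 17 well-known members; for the other lists, for genes past 0.05 or the lowest p. A gene of these other lists that met this rule is not reported here. Replicate numbers of the labels were taken as pairing the libraries between the ligands, since the correlations of deviations were all over 0.1 (0.167, 0.368 and 0.433). MsOc3HBC replicate 2 with HBC530 replicate 1 gave 0.296. They were not taken as pairs with DMSO (from -0.111 to 0.172). Deviations within a group sum to 0 and replicate 3 stood apart in both ligands, so these correlations cannot show whether replicates 1 and 2 are paired. The 9 libraries are called biological replicates by the study. p-values set a difference between groups against the spread between these libraries, in an estimate that is shared in part across genes. Alternatives were DESeq2 1.42.0, limma-voom (limma 3.58.1), RLE and upper-quartile scaling, no filter or a stricter one (10 counts per library), 1 fit to all 9 libraries, the block and each library left out; fits without replicate 3 of both ligands that also pool or block were added after seeing the data. Simulated data were used as a test, with 200 changed genes, for HBC530 against DMSO, MsOc3HBC against DMSO and MsOc3HBC against HBC530. Of changes of 0.5 on the log2 scale, edgeR recovered 29.9, 22 and 17% in that order. Of changes of 1 it recovered 78.6, 77.5 and 77.8% (17458, 17304 and 17167 genes), and 5, 11 and 3 unchanged genes were called. Counts were drawn independently for each gene and library, without the shift of replicate 3 seen in both ligands, so these shares need not hold for the real libraries. Levels between genes are RPKM on the exonic length of the count files.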

Additional observations from a re-analysis of the deposited data

Results flagged for a closer look

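Every result here is a difference between the ligands' effects, tested directly as MsOc3HBC minus HBC530 on the log2 scale. HSPA1A (-0.761) and DNAJB1 (-0.345) without the block are given because all HBC530 libraries were above DMSO and all MsOc3HBC libraries below it; their direct tests without the block gave an adjusted p of 0.248 and 0.643 (edgeR). With the replicate as a block, 10 of the 43 genes differed at an adjusted p under 0.05 by edgeR's quasi-likelihood test (11.4% of all genes), and 0 did without the block. The cause was not tested. Among the inducible targets these were HSPA1A (-0.754), HSPA1B (-0.578), DNAJB1 (-0.342), BAG3 (-0.231) and HSPB1 (-0.198). The others were the constitutive HSPA8 (-0.337) and FKBP4 (-0.166), the factor HSF1 (-0.278), and the mitochondrial TRAP1 (-0.235) and HSPE1 (0.172).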

How the results depend on the processing

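The counts of the 43 genes past a threshold depended on replicate 3 of the ligands and on the replicate block. For HBC530 against DMSO, 1 gene (HSPA1B) passed an adjusted p of 0.05 without a filter on low counts (0.146% of all genes). The count at an unadjusted p under 0.05 was 7 in 1 fit to all libraries but replicate 3 of both ligands (5.09% of all genes) and from 3 to 6 with each library left out, where the highest count came without HBC530 replicate 3 (4.91% of all genes). For MsOc3HBC against DMSO the adjusted count was 1 in the fit to all libraries but replicate 3 of both ligands (198 of 18315 genes tested) and from 0 to 1 with each library left out, and the unadjusted count was 26 in that fit (17.3% of all genes) and from 2 to 26 with each library left out, the 26 without MsOc3HBC replicate 3 (14.5% of all genes).

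Between the ligands the adjusted count was 0, but 2 with DESeq2 (0.0686% of all genes), 2 without a filter (0.0343%), 1 with all 9 libraries in 1 fit (0.0222%), 3 in the fit to all libraries but replicate 3 of both ligands (0.0928%), 10 without those libraries (9.16%), 10 with the replicate block (11.4%) and 19 with the replicate block without them (19.5%), a fit of 4 libraries to which few residual degrees of freedom are left. The unadjusted counts were 17 in the fit to all libraries but replicate 3 of both ligands (16.2% of all genes), 21 without those libraries (24.1%), 18 with the replicate block (27.2%), 22 with the block without them (30%) and from 4 to 11 with each library left out. The cause of these changes was not tested. Against DMSO the replicate numbers were not taken as pairs. There the replicate block left 0 of the 43 past the adjusted threshold with either ligand. It moved the calls over all genes from 3 to 16 (HBC530) and from 27 to 149 (MsOc3HBC).

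HSPA1A, HSPA1B, DNAJB1 and HSPA8 kept the sign of their difference between the ligands in every alternative run. With at least 1 library left out, the sign turned for 13 of the 43 with HBC530, 9 with MsOc3HBC and 18 between the ligands, with values from -0.13 to 0.14 over all libraries. The values that follow are of the 21 genes given by library. With upper-quartile scaling FKBP4 was at 0.0109 with HBC530, HSPB1 at 0.00406 with MsOc3HBC, and TCP1 at 0.00032 between the ligands. HSPA8 with HBC530 was at -0.0023 without a filter and at -0.02996 in the fit to all libraries but replicate 3 of both ligands, in which HSP90AA1 was at -0.055 and HSPE1 at -0.0141 with MsOc3HBC. Between the ligands CCT6A was at -0.000988 with DESeq2, -0.00979 without a filter, -0.046 in that fit, -0.0522 without replicate 3 of both ligands and -0.052 with the block as well, and HSF2 was at -0.0419, -0.048 and -0.0461 in the last 3 of these.

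Of these 21, with each library left out, 8 turned sign against DMSO with HBC530, BAG3 (from -0.0304 to 0.113), CCT2 (from -0.0474 to 0.0187), CCT4 (from -0.0392 to 0.00107), FKBP4 (from -0.0441 to 0.0325), HSF1 (from -0.0321 to 0.136), HSPA8 (from -0.0222 to 0.0561), HSPE1 (from -0.169 to 0.0412) and TRAP1 (from -0.0101 to 0.0914). With MsOc3HBC 4 did, HSF2 (from -0.123 to 0.0215), HSP90AA1 (from -0.0523 to 0.173), HSPB1 (from -0.135 to 0.0667) and HSPE1 (from -0.0112 to 0.216). Between the ligands 6 did, CCT6A (from -0.0271 to 0.0253), DNAJB2 (from -0.209 to 0.0174), HSF2 (from -0.0154 to 0.133), HSP90AA1 (from -0.182 to 0.0898), HSPD1 (from -0.0439 to 0.0114) and TCP1 (from -0.0525 to 0.0256).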
